A study of Mus musculus with 3 samples.

Results

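The platelet-derived growth factor (PDGF) genes are the ligand genes Pdgfa, Pdgfb, Pdgfc and Pdgfd and the receptor genes Pdgfra and Pdgfrb. These 6 genes were taken by symbol from a table of 16587 genes, and all 6 had a row in it. The table held 3 poly(A) RNA libraries, numbered 1 to 3, from whole hearts of wild-type (WT) male mice aged 12 weeks. All 3 libraries formed 1 group with no treatment, and no source used here gave the strain or any further allele. No label ties the libraries to separate animals, so every spread and p-value below measures only the difference between these libraries, which may be technical. No contrast between groups was possible, and the comparisons are among the 6 genes and among the 3 libraries.

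PDGF ligands are secreted dimers that bind receptor tyrosine kinases, and the receptors pair on ligand binding, phosphorylate each other and recruit signalling adaptors. The PDGF-A and PDGF-B chains are cut to their active form inside the cell, whereas PDGF-C and PDGF-D are secreted in a latent form that carries a CUB domain and are cut outside the cell. PDGF receptor alpha binds PDGF-A, PDGF-B and PDGF-C chains, and PDGF receptor beta binds PDGF-B and PDGF-D chains. In the heart Pdgfra is widely used as a marker of fibroblasts and Pdgfrb as a marker of pericytes and other mural cells, and PDGF-B from endothelial cells is known for drawing pericytes to capillaries. In whole-heart RNA, fewer cells of a type and less RNA per cell cannot be told apart.

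Promoter sequences for 4 of the 6 genes were found in the RefSeq table of build GRCm38.p6. Pdgfc and Pdgfd, both genes of CUB-domain ligands, shared an order of libraries described further on, which 19.9% of all genes tested had. Shared regulation was not tested, and their promoters are shown only for that order. Each runs from 250 bases before to 50 bases after the annotated start, 5′ to 3′ on the strand of the gene, which is plus for both. The Pdgfc window is chr3:81036166-81036465 and the Pdgfd window is chr9:6168236-6168535. Capitals mark a CArG box (the binding motif of serum response factor) in Pdgfc and a TATA box in Pdgfd.
Pdgfc: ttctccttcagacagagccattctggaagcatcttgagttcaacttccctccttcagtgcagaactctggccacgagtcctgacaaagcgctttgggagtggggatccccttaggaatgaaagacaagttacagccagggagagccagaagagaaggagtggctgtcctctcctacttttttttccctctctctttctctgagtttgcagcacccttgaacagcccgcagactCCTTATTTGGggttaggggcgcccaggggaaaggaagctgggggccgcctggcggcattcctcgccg
Pdgfd: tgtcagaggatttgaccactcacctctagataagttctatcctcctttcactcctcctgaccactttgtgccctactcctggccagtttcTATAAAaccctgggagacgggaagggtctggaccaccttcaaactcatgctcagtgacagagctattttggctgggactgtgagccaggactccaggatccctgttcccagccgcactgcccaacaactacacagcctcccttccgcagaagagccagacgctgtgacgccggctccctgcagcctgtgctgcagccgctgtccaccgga
The motifs searched on both strands were the TATA box (TATAAA), the GC box (GGGCGG), the CCAAT box (CCAAT), the AP-1 site (TGANTCA) and the CArG box, which do not overlap in these windows. The CArG box of Pdgfc lay at -17 to -8 from the start base, counted as +1, and 1.63% of 32851 promoters of the same length held one. The TATAAA of Pdgfd lay farther out, at -160 to -155, and 13.6% of promoters held one. The search found 1 GC box in 1 of the Pdgfa promoters and 2 in the other, a motif in 35.7% of promoters, and no match to any of the 5 motifs in the Pdgfra window. These matches describe letters in a window and say nothing about binding. The GC content of the windows was 55.0% for Pdgfc, 56.7% for Pdgfd, 51.0% for Pdgfra and 67.0% and 73.3% for Pdgfa, against a median of 52.7% over all promoters of the table.

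Library totals were 24914479 to 26398140 counts, and 14883 to 15118 genes had a count. Over genes, the chi-square statistic of each pair of libraries divided by its degrees of freedom was 13.6 to 18.3, where counting noise alone gives a value near 1, so all 3 were counted separately. This does not show that they came from different hearts. Of the cell types a dissected heart can hold, the cardiomyocyte, fibroblast, pericyte, smooth muscle, endothelial and macrophage marker lists were detected in full. So were the Schwann cell and erythroid lists. Library 1 stood apart in liver markers. Their sum there was 96.8 CPM (counts per 1000000 counts of the library) against 2.92 and 6.30 CPM in libraries 2 and 3. Of 5 liver markers, the 3 past the low-count filter all passed edgeR's test of variation, which 0.575% of all genes tested passed. None of the 3 passed without library 1, where 0.15% of all genes did. Erythroid markers summed to 2221, 1047 and 1697 CPM in libraries 1, 2 and 3, and all 5 passed, against 1 without library 1 and 2 without library 2. The hemoglobin copies among them are near-identical and are uncertain gene by gene. The liver and erythroid lists were chosen with earlier results of these data known. Their calls describe these libraries and are no independent test. Library 3 alone held more than 2 counts of the mesothelial markers Upk3b, Msln, Lrrn4 and Upk1b (212, 107, 42 and 20 counts), whereas the fifth of that list, Wt1, was lowest there (506, 395 and 252 counts). Of 5 lymphocyte markers none reached 1 CPM in every library, and Cd3e and Ms4a1 had 0 counts throughout, which allows up to 0.114 to 0.120 CPM (3 counts of the total). The sum of 5 adipocyte markers was 1.06 to 2.85 CPM.

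Both receptors were well represented in the counts. Pdgfrb had 2002, 2142 and 2072 counts in libraries 1, 2 and 3, or 79.1, 81.1 and 83.2 CPM. Its levels lay within a 1.05-fold range, the narrowest of the 6 genes, with a mean of 81.1 ± 2.03 CPM (SD, n = 3). Pdgfra had 1134, 1271 and 1368 counts, or 44.8, 48.2 and 54.9 CPM. Library 3 was highest and library 1 lowest, a 1.23-fold range around a mean of 49.3 ± 5.15 CPM (SD, n = 3). The CPM ranges of the receptors did not overlap, and Pdgfrb had more counts than Pdgfra in every library.

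Among the ligands Pdgfb, which encodes the chain that both receptors bind, had the most counts. Its 1716, 1802 and 1871 counts gave 67.8, 68.3 and 75.1 CPM, with a mean of 70.4 ± 4.09 CPM (SD, n = 3). Libraries 1 and 2 were nearly equal and library 3 was 1.11-fold above the lowest. Pdgfd, a ligand chain of receptor beta, had 633, 539 and 705 counts, or 25.01, 20.4 and 28.3 CPM. Library 2 was lowest and library 3 highest, a 1.39-fold range around a mean of 24.6 ± 3.96 CPM (SD, n = 3). Pdgfa, a ligand chain of receptor alpha, had 275, 382 and 298 counts, or 10.9, 14.5 and 12.0 CPM. It was the 1 member of the 6 that was highest in library 2, with a mean of 12.4 ± 1.85 CPM (SD, n = 3).

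Pdgfc, the other ligand chain of receptor alpha, was the lowest and the most spread of the 6 genes. It had 52, 29 and 71 counts, or 2.05, 1.10 and 2.85 CPM, a mean of 2.001 ± 0.877 CPM (SD, n = 3). The lowest value was in library 2 and the highest in library 3, a 2.59-fold range. Exact Poisson 95% intervals, which cover counting error only, were 1.53 to 2.69 CPM in library 1, 0.736 to 1.58 CPM in library 2 and 2.23 to 3.60 CPM in library 3. The intervals of libraries 2 and 3 did not overlap, and that of library 1 overlapped both.

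**Figure D1:**
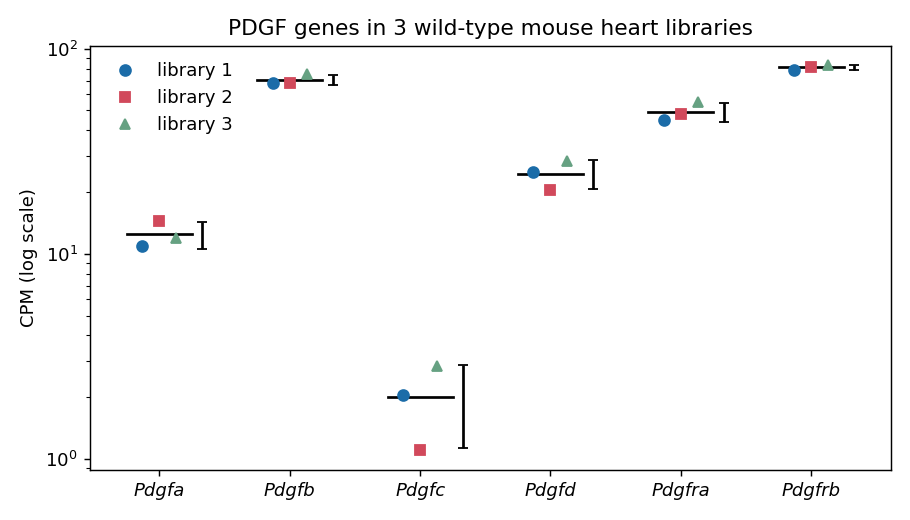
CPM on a log axis for the 4 ligand genes and the 2 receptor genes in libraries 1, 2 and 3 (points), with the mean (horizontal line) and SD (bar at the right of each gene). Pdgfrb (81.1 CPM) and Pdgfb (70.4 CPM) lie highest, and Pdgfc (2.001 CPM) lies lowest with the widest spread.

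All 6 genes reached 1 CPM in all 3 libraries, as did 71.3% of the genes in the table. For Pdgfc in library 2 (1.10 CPM) the Poisson 95% interval of 0.736 to 1.58 CPM spanned that limit. At a limit of 5 CPM 5 of the 6 genes were detected, and Pdgfc was not. The share of all genes at 5 CPM is not given here.

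Genes were compared with each other per kilobase of annotated exon (TPM, counts per kilobase divided by their sum over the 16077 genes of known length, times 1000000). On this scale the order of mean levels was Pdgfb, Pdgfrb, Pdgfd, Pdgfra, Pdgfa and Pdgfc. Pdgfb stood at 50.8 ± 4.23 TPM and Pdgfrb at 44.4 ± 2.07 TPM (SD, n = 3 here and for the other TPM levels). The lowest Pdgfb value, 48.1 TPM, was above the highest Pdgfrb value, 46.8 TPM, so the ranges did not overlap, although the difference was only 1.14-fold. Pdgfd followed at 23.4 ± 4.35 TPM, 1.92-fold below Pdgfrb, with no overlap. Pdgfra stood at 14.8 ± 1.88 TPM, and its range lay below that of Pdgfd, whose lowest value was 19.0 TPM against 16.9 TPM for the highest of Pdgfra. Pdgfa stood at 11.9 ± 1.60 TPM. Its highest value, 13.6 TPM, was above the lowest of Pdgfra, 13.3 TPM, so the ranges of these neighbours overlapped. Within libraries Pdgfra was higher in 3 of 3, by 0.31 ± 0.24 on the log2 scale (SD, n = 3). Pdgfc stood at 1.19 ± 0.547 TPM, 10.8-fold below Pdgfa and with no overlap. Among the 16077 genes with a length, mean TPM ranked Pdgfb in the top 15.4%, Pdgfrb in the top 17.3%, Pdgfd in the top 27.8%, Pdgfra in the top 36.6%, Pdgfa in the top 40.7% and Pdgfc in the top 71.6%.

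The distances between neighbours depended on the length used. The union of all annotated exons of Pdgfra spans 10024 bases and its longest transcript 6834 bases, whereas Pdgfrb has 5478 and 5423 bases. With the longest transcript as length, the order of means was kept, but Pdgfd (17.4 ± 3.25 TPM) and Pdgfra (16.0 ± 2.04 TPM) overlapped, and Pdgfd was higher in 2 of 3 libraries. Pdgfb was then 1.60-fold above Pdgfrb. With no length correction the top place reversed, since in CPM Pdgfrb was above Pdgfb with no overlap (79.1 to 83.2 against 67.8 to 75.1 CPM).

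**Figure D2:**
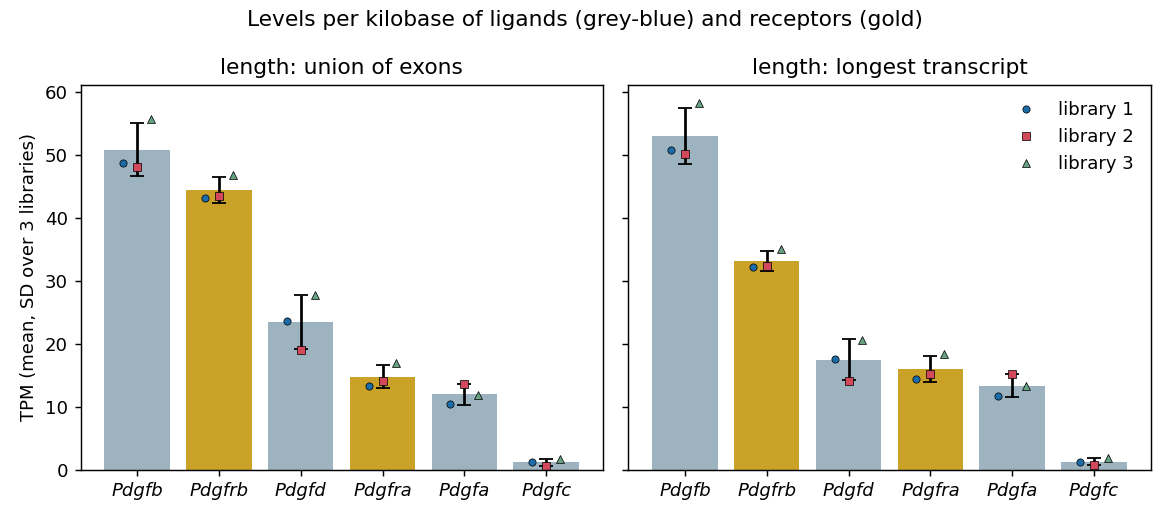
Levels per kilobase (TPM) of ligands and receptors, ordered by mean, with the union of exons (left) or the longest transcript (right) as length. Bars are means from 0, error bars are SD over 3 libraries and points are libraries. Pdgfd and Pdgfra are separate on the left (23.4 and 14.8 TPM) and overlap on the right (17.4 and 16.0 TPM).

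Receptor beta took the larger share of the receptor transcripts in every library. The log2 ratio of Pdgfra to Pdgfrb per kilobase was -1.69, -1.63 and -1.47 in libraries 1, 2 and 3, with a mean of -1.60 ± 0.11 (SD, n = 3), so that Pdgfrb was 3.02-fold higher. With the longest transcript it was 2.08-fold higher and with no length correction 1.65-fold higher, and Pdgfrb was above Pdgfra in all 3 libraries under each of these lengths. Pdgfrb made up 76.4%, 75.5% and 73.5% of the receptor TPM. With 3 libraries the smallest p of an exact sign-flip test is 0.25, so the ratios were described by their SD alone.

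Pdgfb made up most of the ligand transcripts. Its share of the summed ligand TPM was 58.0%, 59.2% and 57.5% in libraries 1, 2 and 3, with a mean of 58.2 ± 0.872% (SD, n = 3). Pdgfd took 28.2%, 23.3% and 28.6%, and Pdgfa took 12.4%, 16.7% and 12.2%. In library 2 the share of Pdgfa was higher and that of Pdgfd lower than in the other libraries. Pdgfc took 1.44%, 0.778% and 1.78%. In log2 ratios per kilobase, Pdgfa lay at -2.09 ± 0.24 against Pdgfb (4.26-fold lower), and Pdgfd at -1.13 ± 0.18 against Pdgfb (2.19-fold lower). Pdgfc lay at -3.42 ± 0.86 against Pdgfa, with -3.10, -4.40 and -2.77 in libraries 1, 2 and 3, and at -4.39 ± 0.45 against Pdgfd. All of these ratios were well beyond their SD.

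The 4 ligands together stood at 83.8, 81.2 and 96.8 TPM and the 2 receptors at 56.4, 57.5 and 63.7 TPM. Library 3 was highest for both sums. The log2 ratio of ligands to receptors was 0.56 ± 0.05 per kilobase (SD, n = 3). With no length correction it reversed to -0.25 ± 0.05, the receptor genes having longer exons in all (5478 and 10024 bases, against 3119 to 5089 for the ligands), so which of the sums was larger depended on length.

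Whether each gene differed between libraries more than genes of its level was tested with edgeR, as an intercept-only negative binomial fit to the 12521 genes past its low-count filter. All 6 PDGF genes passed the filter. The edgeR adjusted p was under 0.05 for 0 of the 6 and the unadjusted p was under 0.05 for 0 of the 6, and DESeq2's dispersion trend, which called 0.543% of all genes, also called 0. Over all genes tested edgeR called 0.575% after adjustment and gave 5.21% an unadjusted p under 0.05, and a count of 0 among 6 genes is near this background. The unadjusted p was 0.112 for Pdgfc, 0.124 for Pdgfd, 0.343 for Pdgfa, 0.409 for Pdgfra, 0.772 for Pdgfb and 0.970 for Pdgfrb, and the edgeR adjusted p was 0.9996 for each. Without library 1 the unadjusted p of Pdgfc was 0.0338 and that of Pdgfd 0.0465, with edgeR adjusted p of 0.911 and 0.928, where 0.15% of genes were called. The SD of log2 CPM was 0.04 for Pdgfrb, 0.08 for Pdgfb, 0.15 for Pdgfra, 0.21 for Pdgfa, 0.24 for Pdgfd and 0.69 for Pdgfc, with a median of 0.18 over the 6 genes and 0.14 over all genes tested.

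**Figure D3:**
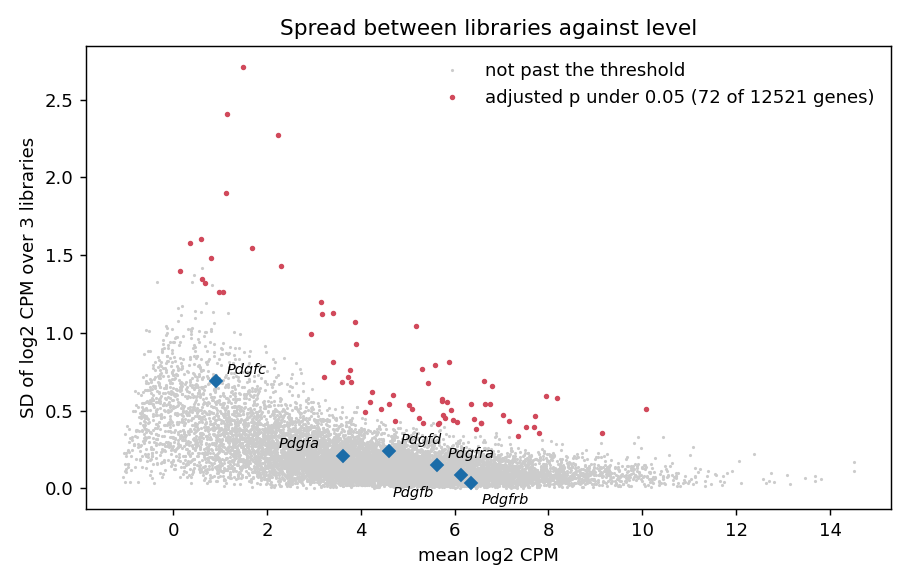
SD of log2 CPM over 3 libraries (vertical) against mean log2 CPM (horizontal) for the 12521 genes tested. Genes past the adjusted threshold are red, the others grey, and the 6 PDGF genes are blue diamonds. All 6 lie within the grey cloud, and Pdgfc (SD 0.69) sits among the low genes, which spread widely.

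Library 3 was highest for 5 of the 6 genes, all except Pdgfa. Over all genes tested, the 2 orders with library 3 highest made up 19.9% and 18.7%. Pdgfc and Pdgfd shared the order library 3, library 1, library 2, an order that 19.9% of all genes tested had. Relative to the 3-library mean of log2 CPM, Pdgfc lay at 0.14, -0.75 and 0.61 and Pdgfd at 0.04, -0.25 and 0.22 in libraries 1, 2 and 3. The deviations of Pdgfc were thus more than 2 times those of Pdgfd in each library. Pdgfra lay at -0.13, -0.03 and 0.16.

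Pdgfra had the order library 3, library 2, library 1, as did Pdgfb, Pdgfrb and 18.7% of all genes tested. Of the 8 fibroblast markers, which mark the main cells known for Pdgfra, 5 had that order, and the others were highest in library 1 (Gsn) or library 2 (Dcn and Dpt). The list had mean deviations of -0.20, -0.01 and 0.21 and a summed level of 3396, 3568 and 3684 CPM. All 8 were detected and 0 had a zero count in any library. The markers of highest level were Gsn (2076, 1982 and 2015 CPM), an actin-severing protein, and Dcn (839, 1004 and 995 CPM), the matrix proteoglycan decorin. The collagen genes Col3a1 (92.5, 138 and 177 CPM, edgeR adjusted p = 0.00029) and Col1a1 (45.1, 47.7 and 79.8 CPM, edgeR adjusted p = 0.00817) passed the threshold, as did 0.575% of all genes tested. Both lost it without library 3 (edgeR adjusted p = 0.159 for Col3a1 and 0.9999 for Col1a1) and without library 1 (0.931 and 0.222). The transcription factor gene Tcf21 was at 9.996, 11.5 and 13.8 CPM. The smooth muscle and Schwann cell marker lists were also lowest in library 1 and highest in library 3 on average. The pericyte, endothelial, cardiomyocyte and macrophage lists were not. The part of the fibroblast markers in the difference of Pdgfra between libraries was not tested.

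The deviations of the 7 pericyte markers averaged to 0.01, 0.00 and -0.01, with a median SD of log2 CPM of 0.14 for the single markers against 0.04 for Pdgfrb. Of the 7 markers 4 were highest in library 3, as Pdgfrb was, 2 in library 1 and 1 in library 2. Their summed level was 1102, 1189 and 1273 CPM, most of it from Rgs5 (804, 902 and 981 CPM), a regulator of G protein signalling, while Mcam, a cell adhesion molecule, was at 91.9, 90.5 and 93.6 CPM. EdgeR and DESeq2's trend each called 0 of the 7 pericyte markers, and 0 had an unadjusted p under 0.05. Over all genes tested these shares were 0.575%, 0.543% and 5.21%, in the same order. The 7 smooth muscle markers were higher in library 3, at mean deviations of -0.17, -0.15 and 0.32 and sums of 648, 664 and 843 CPM, with Acta2, the smooth muscle actin, at 221, 241 and 287 CPM and the cytoskeletal protein gene Smtn at 150, 144 and 166 CPM. EdgeR and DESeq2's trend each called 0 of these 7, and 4 had an unadjusted p under 0.05, against 5.21% of all genes tested. The 7 endothelial markers, whose cells are a known source of Pdgfb, lay at 0.01, -0.07 and 0.06, against -0.05, -0.04 and 0.10 for Pdgfb. Their sum was 1344, 1271 and 1500 CPM, led by the junction genes Pecam1 (371, 362 and 465 CPM) and Cdh5 (363, 325 and 434 CPM). Of the 7, 4 were highest in library 3, and Egfl7, Emcn and Esam were lowest there. For this list edgeR and DESeq2's trend each called 0 of 7, with 1 at an unadjusted p under 0.05, against 5.21% of all genes tested.

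Macrophages and platelets are other known sources of PDGF ligands. The 8 macrophage markers summed to 1057, 1011 and 994 CPM, led by Lyz2 (lysozyme) and the complement gene C1qb. The 5 platelet and megakaryocyte markers summed to 36.7, 22.0 and 26.6 CPM, most of it from the chemokine gene Pf4 (31.2, 17.8 and 21.9 CPM), and Gp9, a subunit of a platelet receptor, had 7, 6 and 8 counts. Of the 5, Pf4, Ppbp and Itga2b were highest in library 1, Gp1bb (7, 31 and 22 counts) in library 2 and Gp9 in library 3. Cardiomyocyte markers, led by Myh6 and Actc1, summed to 60560, 56630 and 61040 CPM. The part of these cell types in the PDGF values was not tested.

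**Figure D4:**
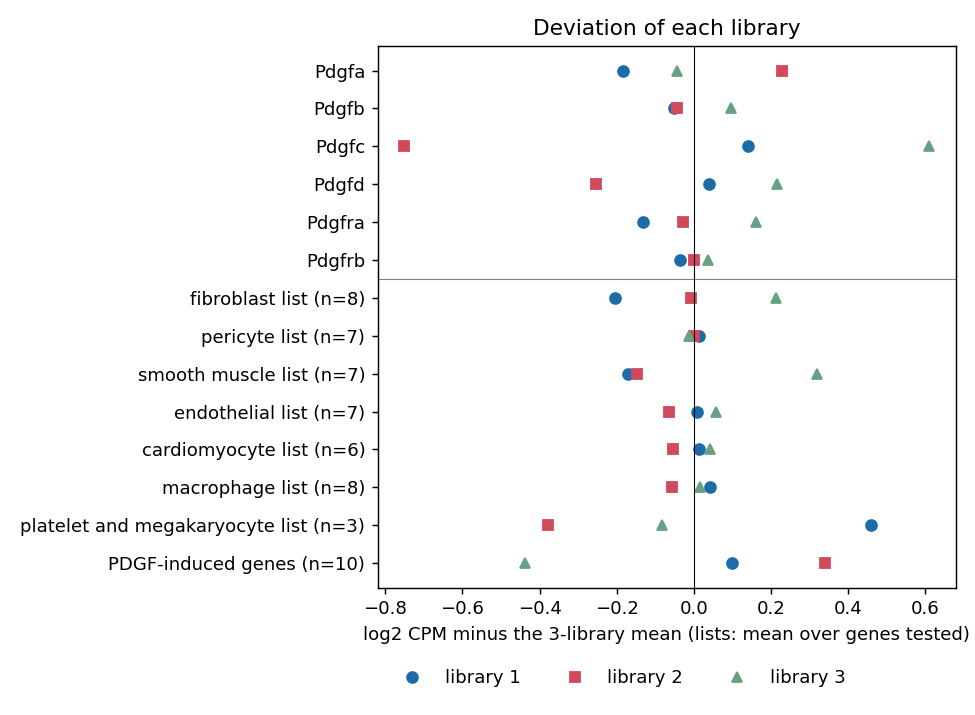
Log2 CPM in each library minus the 3-library mean for the 6 PDGF genes (top) and, below the line, the mean of the same deviation over the tested genes of 7 cell marker lists and of the genes induced by PDGF. Pdgfra (-0.13, -0.03 and 0.16) and the mean of the fibroblast list (-0.20, -0.01 and 0.21) are both lowest in library 1 and highest in library 3. So are Pdgfb, Pdgfrb and the mean of the smooth muscle list. Pdgfrb stays within 0.04 of its mean.

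Of 10 genes that activate or bind PDGF ligands, 9 were detected, and St14, a membrane protease, was below 1 CPM with 10, 24 and 14 counts. Furin, a proprotein convertase, stood at 141, 154 and 164 CPM and its relative Pcsk6 at 139, 133 and 149 CPM. Plat, the tissue plasminogen activator that cuts latent PDGF-C, stood at 16.6 ± 1.04 TPM, and Plau, the urokinase that cuts latent PDGF-D, at 7.06 ± 1.08 TPM. With the union of exons as length, Plat transcripts were thus above those of Pdgfc (1.19 TPM), and Plau transcripts were below those of Pdgfd (23.4 TPM). Protein levels and the cutting of the ligands were not measured. The list had its highest counts in Sparc (537 ± 77.9 CPM), a matrix protein that binds PDGF-B, and in Lrp1 (213 ± 27.3 CPM), an endocytic receptor known as a partner of receptor beta, with Furin next (153 ± 11.7 CPM). Of 9 tested, edgeR called 0, 0 fell below an unadjusted p of 0.05 and DESeq2's trend called 0. Over all genes tested these shares were 0.575%, 5.21% and 0.543%, in the same order. The median SD of log2 CPM was 0.13, against 0.14 over all genes tested.

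All 35 genes that relay the receptor signal were detected, with Ptpn11, the phosphatase SHP2 (342 ± 11.6 CPM), Akt1 (329 ± 12.1 CPM) and Akt2 (283 ± 8.43 CPM), kinases downstream of PI3-kinase, highest. EdgeR called 0 of 35, 2 fell below an unadjusted p of 0.05 and DESeq2's trend called 0, and the median SD of log2 CPM was 0.10. All 12 genes that attenuate the receptor signal were detected, led by the adaptor Sh2b3 (84.5 ± 5.39 CPM), the Sprouty gene Spry1 (61.4 ± 3.18 CPM) and the phosphatase Ptpn1 (42.7 ± 4.80 CPM). EdgeR called 0 of 12, 1 fell below an unadjusted p of 0.05 and DESeq2's trend called 0, and the median SD was 0.11. For both lists, the shares over all genes tested were 0.575% called by edgeR, 5.21% by its unadjusted p and 0.543% by DESeq2's trend.

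Of 10 genes known to be induced by PDGF in cultured mouse fibroblasts, 9 were detected, and Fosl1 had 19, 33 and 10 counts. They are induced by many other stimuli too. Odc1, which starts polyamine synthesis, stood at 112 ± 7.68 CPM and the AP-1 subunit Jun at 91.8 ± 9.55 CPM. EdgeR called 3 of the 10, against 0.575% of all genes tested, and these 3 were all lowest in library 3. The AP-1 subunit Fos stood at 13.4, 20.1 and 4.42 CPM (edgeR adjusted p = 6.35e-09), its partner Junb at 74.6, 68.3 and 36.9 CPM (edgeR adjusted p = 0.000128) and the zinc finger factor Egr1 at 30.9, 34.2 and 15.9 CPM (edgeR adjusted p = 0.000263). Without library 3, where 0.315% of all genes were called, edgeR called 0 of the 10, and these adjusted p were 0.783, 0.9999 and 0.9999, so the difference rested on that library. On average the list lay at 0.10, 0.34 and -0.44 in libraries 1, 2 and 3. The list was chosen with earlier results of these data known, so its share of calls is no independent test. Its relation to the levels of the PDGF genes was not tested.

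The nearest relatives of the PDGF genes were compared per kilobase. Of 12 related ligands and receptors 11 were detected, and Flt3, a receptor kinase of blood progenitors, had 12, 13 and 8 counts. Among ligands of the same cystine-knot superfamily, the vascular growth factor genes Vegfb (714 ± 25.02 TPM) and Vegfa (126 ± 1.56 TPM) were above all 4 PDGF ligands. Pgf (19.6 ± 2.51 TPM), Vegfc (8.69 ± 1.14 TPM) and Vegfd (3.79 ± 0.771 TPM) lay within the range of the PDGF ligands. Among receptor kinases of the same structural class as the PDGF receptors, Csf1r, the macrophage growth factor receptor, stood at 37.7 ± 2.41 TPM, between Pdgfrb and Pdgfra with the union of exons as length. Kit, the stem cell factor receptor, stood at 1.54 ± 0.667 TPM. The other listed receptors Flt1 (69.1 ± 13.6 TPM) and Kdr (59.9 ± 8.50 TPM) had means above both PDGF receptors. The mean of Flt4 (17.1 ± 3.61 TPM) lay between Pdgfrb and Pdgfra. Pdgfrl, a receptor-like gene without a kinase, stood at 2.71 ± 0.850 TPM, with 46, 93 and 78 counts. By edgeR 0 of the 11 tested were called, and 0 were called by DESeq2's trend, against 0.575% and 0.543% of all genes tested. An unadjusted edgeR p under 0.05 was found for 3 of them, against 5.21% of all genes tested. Among these was the highest-count receptor Flt1 (306, 259 and 365 CPM).

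Likeness of pattern was measured as the root mean square difference between the log2 deviations of genes over the 3 libraries. With so few libraries many genes are close by this measure. For Pdgfrb 1719 genes (13.7% of those tested) lay within 0.05 and for Pdgfb 1318 (10.5%). There were 685 (5.47%) for Pdgfra, 237 (1.89%) for Pdgfd, 212 (1.69%) for Pdgfa and 5 (0.0399%) for Pdgfc. These numbers fell roughly as the SD of log2 CPM rose, from 0.04 for Pdgfrb to 0.69 for Pdgfc. They largely restate spread and do not show which patterns are shared. The nearest gene was Ankrd12 for Pdgfrb, Eif4ebp2 for Pdgfb, Cep85l for Pdgfra, Prex2 for Pdgfd and Wdr60 for Pdgfa, each within 0.005. For Pdgfc the nearest was Kif7 at 0.0336, with 36, 21 and 49 counts.

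Some PDGF counts may hold reads of antisense genes, since it was not given whether the counting used strand. In GENCODE M21 the exons of Pdgfa share 813 bases with the antisense gene 6330403L08Rik, those of Pdgfra share 456 bases with Gm42802 and 166 bases with Gm42803, and those of Pdgfc share 147 bases with Gm16000. Exons of Pdgfb, Pdgfd and Pdgfrb share 0 bases with genes on the other strand in that annotation. The amount of antisense RNA was not analysed here.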

How the data were processed

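Poly(A) RNA of 3 mouse heart libraries was sequenced. The counts deposited by the authors are whole numbers for each symbol, not normalized, and totals were 24914479 to 26398140 counts. HISAT2 2.0.4, Bowtie2 2.2.5, RSEM and build GRCm39 are named, per the submitters' processing notes, with no role or order. RSEM gives estimates, so these values may have been rounded.

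CPM used the library total, and TPM used exon lengths from GENCODE M21 (build GRCm38), matched by symbol for 16077 of 16587 genes (96.9%). Coordinates of that annotation were used for the exon overlaps with other genes, and none of them is printed here. Ratios had 0.5 counts added before log2. Variation between libraries was tested with edgeR 4.0.16 in R 4.3.3 (TMM scaling, trended dispersion, deviance against chi-square, Benjamini-Hochberg over all genes tested, threshold 0.05). The procedure was also run on counts simulated from its own fitted trend. Such a run cannot show how well that trend describes real genes. Alternatives were other scalings, filters, lengths, pseudocounts and detection limits, DESeq2 1.42.0, and leaving out each library.

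The 6 genes and all lists were chosen with earlier results of these data known. Shares of a list set beside those of all genes are therefore descriptions, not independent tests. Besides the 6 genes, the text names the members of highest CPM, those below 1 CPM and those called from each list, and the nearest gene by pattern. Members of the cell lists were named by their highest CPM, and a few more (Tcf21, Mcam, Gp9, Gp1bb, Itga2b, Dpt, Wt1, Egfl7, Emcn, Esam, Pcsk6, Plat, Plau, the other relatives of the PDGF genes) were added for their roles or their order of libraries after values were seen. A few genes under this rule are not reported here.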

Additional observations from a re-analysis of the deposited data

How the results depend on the processing

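No paired analysis was possible because all libraries belong to 1 group. The number of genes varying between libraries was 72, against 149 with no filter on low counts, and 19 to 48 when 1 library was left out (19 without library 1, 48 without library 2 and 40 without library 3). None of the 6 PDGF genes was called under any of the 7 alternatives, and the lowest adjusted p was 0.911. Adjusted p this near its upper limit says nothing about stability. The genes induced by PDGF had 3 calls, and 0 to 3 when 1 library was left out. Length moved the ratios. With the longest transcript the log2 ratio was -1.06 for Pdgfra/Pdgfrb, -1.62 for Pdgfd/Pdgfb, -3.87 for Pdgfc/Pdgfd and 0.79 for ligands/receptors. With no length correction these were -0.72, -1.53, -3.70 and a reversed -0.25, and Pdgfa/Pdgfb was -2.51. Of 100 recomputed levels, ratios and counts 87 kept their direction and moved by less than the spread, or for counts by no more than 1.5 times. Much of this tally was fixed in advance and is no measure of stability. A mean of 3 libraries cannot move by its SD when 1 is left out, and lists with 0 calls had little room to change. Depth limits Pdgfc most, at 29 to 71 counts.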
